A study of Mus musculus with 10 samples.

Results

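Genes that mark the epithelial or the mesenchymal state of a cell were followed in every library of the study. They are 10 of the 48897 rows that each expression table holds. They were chosen by name, and the rule uses no measured value, though earlier results of these data were known: the adhesion genes Epcam, Cdh1 and Ocln, the mesenchymal genes Cdh2 and Vim, and the transcription factors Snai1, Snai2, Zeb1, Zeb2 and Twist1. RNA-seq had been run on 10 mouse libraries in 4 groups. Epithelial cells had been sorted as EpCAM positive and CD45 negative from prostates of 3-month-old C57BL/6 mice, giving 3 control libraries and 3 that also carry Arid1aPC-/- (Arid1a KO). Both epithelium groups share a further gene deletion, so the controls are not wild type, and Cre was driven by the Probasin promoter, which is active in prostate epithelium. Cells in which Cre did not act, and cells of other types that passed the sort, keep Arid1a. The Myc-CaP line comes from a prostate tumour of an FVB mouse with a prostate-driven c-Myc transgene, and gave 2 libraries with an empty vector (Myc-CaP EV) and 2 labelled Myc-CaP Arid1a KO, made with CRISPR guides. Whether the KO libraries come from 1 clone, and whether the cells were grown in culture or in mice, is not settled by the sources used here. ARID1A is a subunit of the SWI/SNF chromatin remodelling complex.

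Epithelial cells are held together by cadherin and tight junction proteins. In the epithelial to mesenchymal transition, factors of the Snail, ZEB and Twist families repress adhesion genes such as Cdh1, and cells gain vimentin filaments and N-cadherin. The programme is studied in prostate cancer for its part in invasion, and cells often show only some of its steps. Fibroblasts and many leukocytes express Vim and some of these factors without any transition.

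The Snail and ZEB factors bind the E-box CAGGTG, in either strand (reverse complement CACCTG), in the promoters of adhesion genes. RefSeq promoter windows on GRCm38.p6 run from 250 bases before an annotated start of a gene to 50 after it. They were given for 6 members in 10 windows, and 4 of these windows, of 3 members, held the motif. No window was given for Cdh1, Cdh2, Snai2 or Zeb1, so the motif was not looked for there. Among all 32851 windows, 20.2% held it and 2.88% held it at least 2 times. Ocln and Zeb2 have more than 1 window, and the Ocln windows overlap and share a site. The windows are thus not separate promoters, and the shares were not compared by a test. The windows of Epcam, Ocln and Snai1 are shown because they carry the motif, which is in capitals, and that of Twist1 because Twist1 fell in the epithelium and its window has no match. Each is written 5' to 3' along the gene's own strand. Relative to the start on which each window shown was set, the matches of Epcam began at -187 and -19 and that of Snai1 at -126. Those of Ocln began at -213 and -68 from an inner start. Another Ocln window, not shown (chr13:100552669-100552968), is set on a start further upstream. It held the -213 site at 7, after that start, so the Ocln sites are not upstream of every start of the gene.
Epcam, chr17:87635729-87636028, plus strand: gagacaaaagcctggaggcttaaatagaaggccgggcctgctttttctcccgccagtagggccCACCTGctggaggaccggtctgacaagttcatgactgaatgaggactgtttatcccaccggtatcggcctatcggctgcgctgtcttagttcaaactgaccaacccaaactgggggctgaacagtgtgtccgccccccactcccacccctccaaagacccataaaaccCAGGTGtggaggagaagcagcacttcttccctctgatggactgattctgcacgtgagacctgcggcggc
Ocln, chr13:100552449-100552748, minus strand: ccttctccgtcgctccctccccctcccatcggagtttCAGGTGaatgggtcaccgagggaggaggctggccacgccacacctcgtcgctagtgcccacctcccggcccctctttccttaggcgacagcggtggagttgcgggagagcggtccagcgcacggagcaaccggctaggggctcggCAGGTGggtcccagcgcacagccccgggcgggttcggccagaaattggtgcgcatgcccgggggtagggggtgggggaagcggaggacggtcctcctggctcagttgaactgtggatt
Snai1, chr2:167537945-167538244, plus strand: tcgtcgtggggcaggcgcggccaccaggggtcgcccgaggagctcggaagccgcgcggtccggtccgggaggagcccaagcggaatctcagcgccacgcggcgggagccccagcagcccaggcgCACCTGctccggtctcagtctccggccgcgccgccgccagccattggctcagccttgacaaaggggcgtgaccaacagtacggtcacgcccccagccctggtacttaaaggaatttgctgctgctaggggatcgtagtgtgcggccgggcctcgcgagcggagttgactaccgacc
Twist1, chr12:33957421-33957720, plus strand: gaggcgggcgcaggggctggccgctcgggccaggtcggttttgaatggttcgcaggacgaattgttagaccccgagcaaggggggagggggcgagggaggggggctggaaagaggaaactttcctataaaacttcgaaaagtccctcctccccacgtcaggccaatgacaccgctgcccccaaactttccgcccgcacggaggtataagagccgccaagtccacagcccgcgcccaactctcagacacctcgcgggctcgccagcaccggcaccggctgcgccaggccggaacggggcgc
The windows of Vim and Zeb2 held no match. A match describes the letters of a window and was not measured as binding.

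In the control epithelium the members fell into a high and a low tier. Values are RPKM, in which reads are divided by gene length and library depth, so levels of different genes can be set side by side. Vim, Epcam and Cdh1 lay between the 99.1 and 99.6 percentiles of the genes detected in the epithelium libraries. Vim was highest in the controls with 369 ± 35.2 RPKM (SD, n = 3), next to Epcam with 304 ± 40.9, and the libraries of these genes overlapped. Cdh1 followed with 225 ± 10.5. Ocln at 9.15 ± 0.335 and Snai1 at 8.55 ± 0.938 overlapped, as did Zeb2 at 5.85 ± 0.890 and Twist1 at 5.80 ± 1.31, and Zeb1 at 3.05 ± 0.805 and Snai2 at 2.69 ± 0.301. Cdh2 was lowest at 0.173 ± 0.0794. In the Arid1a KO group the order changed at Zeb2, which at 12.9 ± 0.484 RPKM stood above Ocln at 8.22 ± 0.749 and Snai1 at 7.39 ± 0.752 with no overlap. Twist1 at 2.72 ± 0.747 then overlapped Zeb1 at 2.59 ± 0.210 and Snai2 at 2.92 ± 0.424.

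Between Arid1a KO and control epithelium, Epcam and Twist1 were lower, Zeb2 and Vim were higher, and Cdh1, Ocln, Snai1, Snai2 and Zeb1 did not pass the test. The adhesion genes and the factors thus did not move as 1 block: the ZEB gene that rose was Zeb2, not Zeb1, and the Twist gene fell. Of the 9 members tested, 2 rose, 2 fell and 5 were not called, by limma on log2(RPKM + 1) with Benjamini-Hochberg adjustment over all 16275 genes tested and a threshold of 0.05. In the same fit 57.1% of all genes were called, 27.5% as higher and 29.6% as lower in Arid1a KO, so the share of members called, 4 of 9, lay below that of all genes. The groups did not overlap in 3 of the 9 members, against 66.7% of all genes. Cdh2 lay below the minimum mean of 0.5 RPKM and was not in the fit.

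**Figure D1:**
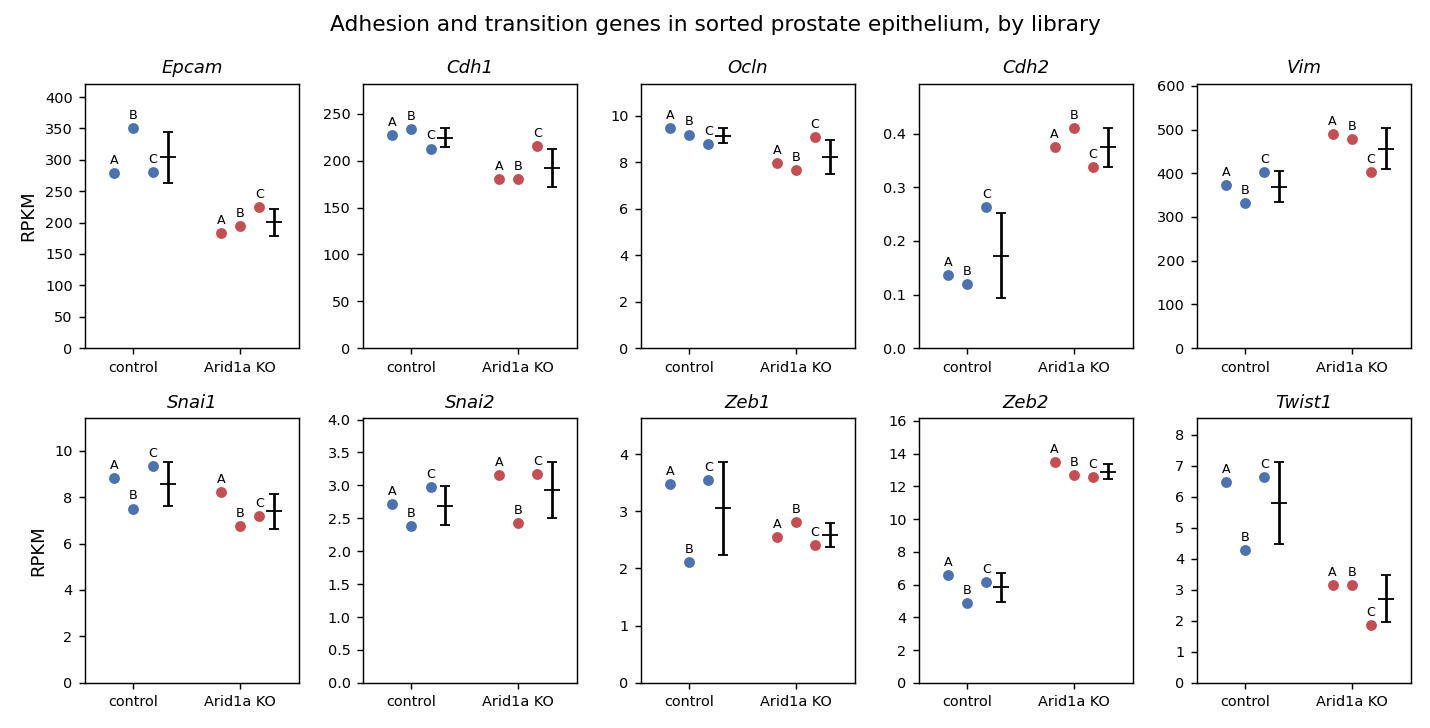
RPKM of each of the 10 genes in the 3 control (blue) and 3 Arid1a KO (red) epithelium libraries, with the library letter above each point and the mean ± SD as a black bar. Epcam and Twist1 lie lower and Zeb2 and Cdh2 higher in all 3 Arid1a KO libraries than in any control, while Vim overlaps in library C of each group.

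Epcam encodes the adhesion molecule on which the cells were sorted, so its RNA was measured among cells already selected for the protein. With libraries taken in the order A, B, C here and below, it had 279, 351 and 281 RPKM in the controls and 183, 194 and 225 in Arid1a KO. Every Arid1a KO library was below every control. The mean fell to 0.660 of the control, a log2 fold change of -0.59 (SE 0.12, 95% interval -0.87 to -0.32, limma adjusted p = 0.00409). Cdh1, which encodes E-cadherin of the adherens junction, had 227, 234 and 213 RPKM in the controls and 181, 181 and 215 in Arid1a KO. Its Arid1a KO libraries A and B were below the controls, and library C was inside their range. The log2 fold change was -0.23 (SE 0.09, 95% interval -0.44 to -0.02, limma adjusted p = 0.0627). Without Arid1a KO library C it was -0.31 with an adjusted p of 0.0173 by limma. Ocln, which encodes the tight junction protein occludin, had 9.46, 9.19 and 8.79 RPKM in the controls and 7.95, 7.65 and 9.07 in Arid1a KO, again with only library C inside the control range. Its log2 fold change was -0.14 (95% interval -0.32 to 0.04, limma adjusted p = 0.160), and 0.02 when every library was rescaled to the same sum of RPKM.

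Vim encodes vimentin, the intermediate filament of mesenchymal cells and leukocytes. It had 373, 332 and 402 RPKM in the controls and 489, 479 and 402 in Arid1a KO. Libraries A and B of Arid1a KO were above all controls, and library C, at 401.9, lay just below control C at 402.1. The mean was 1.24 times the control, a log2 fold change of 0.31 (SE 0.11, 95% interval 0.05 to 0.56, limma adjusted p = 0.0471). This call did not hold without control library A (adjusted p = 0.0942 by limma) or B (0.0989), or without Arid1a KO library A (0.145) or B (0.128). With no filter on low values the adjusted p was 0.115. Cdh2, which encodes N-cadherin, had 0.136, 0.119 and 0.264 RPKM in the controls and 0.376, 0.411 and 0.338 in Arid1a KO. These values correspond to 40, 43 and 82 reads in the controls and 114, 122 and 97 in Arid1a KO, read from the steps between low values. All Arid1a KO libraries were above all controls, at a level far below that of Cdh1. The difference of the means was 0.202 RPKM (exact permutation test, two-sided p = 0.1, the smallest that 3 against 3 libraries allow).

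The ratio of Vim to Cdh1 inside a library does not depend on the scaling between libraries. Its log2 value was 0.71, 0.51 and 0.91 in the controls and 1.43, 1.40 and 0.90 in Arid1a KO. Library C of Arid1a KO lay within the control range, and the means differed by 0.53. The log2 ratio of Cdh2 to Cdh1, after adding 1 to each, was -7.65, -7.71 and -7.40 in the controls and -7.05, -7.01 and -7.34 in Arid1a KO. That difference of 0.46 depended on the number added: with 0.1 it was 1.06.

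Zeb2, a zinc finger repressor of Cdh1 that macrophages and other leukocytes also express, rose most among the members. It had 6.56, 4.85 and 6.13 RPKM in the controls and 13.5, 12.7 and 12.6 in Arid1a KO, with a wide gap between the groups. The mean was 2.21 times the control, a log2 fold change of 1.03 (SE 0.10, 95% interval 0.79 to 1.27, limma adjusted p = 1.74e-04). Its paralog Zeb1 had 3.47, 2.12 and 3.55 RPKM in the controls and 2.54, 2.81 and 2.40 in Arid1a KO. The Zeb1 groups overlapped through control library B, with a log2 fold change of -0.16 (95% interval -0.51 to 0.20, limma adjusted p = 0.403). Without control library B it was -0.33 with a limma adjusted p of 0.0163.

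Twist1 encodes a basic helix-loop-helix factor of mesoderm and fibroblasts. It had 6.46, 4.29 and 6.63 RPKM in the controls and 3.14, 3.15 and 1.85 in Arid1a KO, which is 312, 254 and 337 reads against 156, 153 and 87. Every Arid1a KO library was below every control. The mean fell to 0.469 of the control, a log2 fold change of -0.87 (SE 0.19, 95% interval -1.32 to -0.42, limma adjusted p = 0.00644). Snai1, the Snail repressor, had 8.83, 7.51 and 9.32 RPKM in the controls and 8.23, 6.77 and 7.18 in Arid1a KO. Its groups overlapped, with a log2 fold change of -0.19 (95% interval -0.42 to 0.05, limma adjusted p = 0.148). Without control library B the limma adjusted p was 0.0441, at a log2 fold change of -0.27, and with a trend on gene length removed the log2 fold change was 0.07. Snai2, which encodes Slug and is also expressed in basal epithelial cells, had 2.72, 2.38 and 2.98 RPKM in the controls and 3.16, 2.43 and 3.17 in Arid1a KO. The overlap was wide, and the log2 fold change was 0.09 (95% interval -0.17 to 0.34, limma adjusted p = 0.527). With the length trend removed it was 0.30 and passed, with a limma adjusted p of 0.0451.

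**Figure D2:**
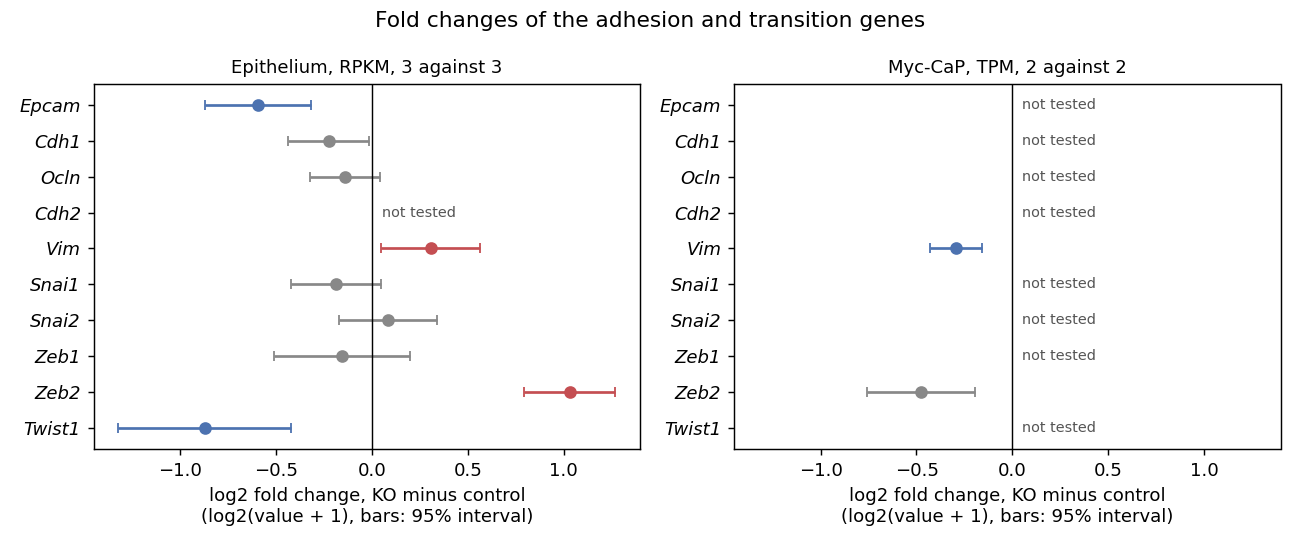
Log2 fold change of each gene, Arid1a KO minus control, on the log2(value + 1) scale with 95% intervals from limma, in the epithelium (left) and in Myc-CaP (right); red rose, blue fell, grey not called at an adjusted p of 0.05. Zeb2 is 1.03 in the epithelium and -0.48 in Myc-CaP, and 8 of the 10 genes lay below the level tested in Myc-CaP.

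Scaling matters for these values because the summed RPKM was lower in every Arid1a KO library (397999 to 403031) than in every control (441646 to 473331). When each library was rescaled to a common sum, the all-gene median went from -0.03 to 0.11 on the log2 scale, and the share of calls that were higher in Arid1a KO from 48.1% to 64.9%. After that rescaling Epcam was at -0.42, Twist1 at -0.73, Vim at 0.48 and Zeb2 at 1.19 on the log2 scale, all still called by limma. Cdh1 was then at -0.05.

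Some markers of other cell types also differed between the groups, where 27.5% of all genes rose and 29.6% fell. Ptprc, which encodes the CD45 of the negative gate, had 30.3, 26.0 and 29.5 RPKM in the controls and 56.2, 58.1 and 57.6 in Arid1a KO, so it was present in every sorted library and higher in the group with more Zeb2 and Vim. Of the 7 leukocyte markers 6 rose and 1, Cd52, fell, and their summed level was 983 to 1044 RPKM in the controls and 1223 to 1321 in Arid1a KO. All 7 macrophage markers rose, with sums of 1625 to 1889 against 2619.9 to 2969 RPKM. Among the 6 neutrophil markers 3 rose (sums 337 to 474 against 383 to 631), of the 5 T cell markers 2 rose (16.8 to 21.0 against 22.5 to 25.4), and of the 5 B cell markers 4 rose (125 to 139.96 against 429.6 to 751). Of the 7 fibroblast markers Dcn, Lum, Dpt and Pdgfra fell, as Twist1 did, and Col1a1, Col1a2 and Col3a1 were not called. The sums of all 7 were 1757 to 2573 against 1429 to 1998 RPKM. Dcn, which encodes the matrix proteoglycan decorin, had 513, 425 and 561 RPKM in the controls and 152, 142 and 146 in Arid1a KO. Of the 7 smooth muscle markers 2 rose and 5 fell (139 to 159 against 117 to 144), and of the 6 endothelial markers 1 rose (47.0 to 58.5 against 53.6 to 67.6). The sums of the neutrophil, fibroblast, smooth muscle and endothelial markers overlapped between the groups. No marker of these lists was at 0 in either epithelium group. Their part in the changes of Zeb2, Vim and Twist1 was not tested.

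**Figure D3:**
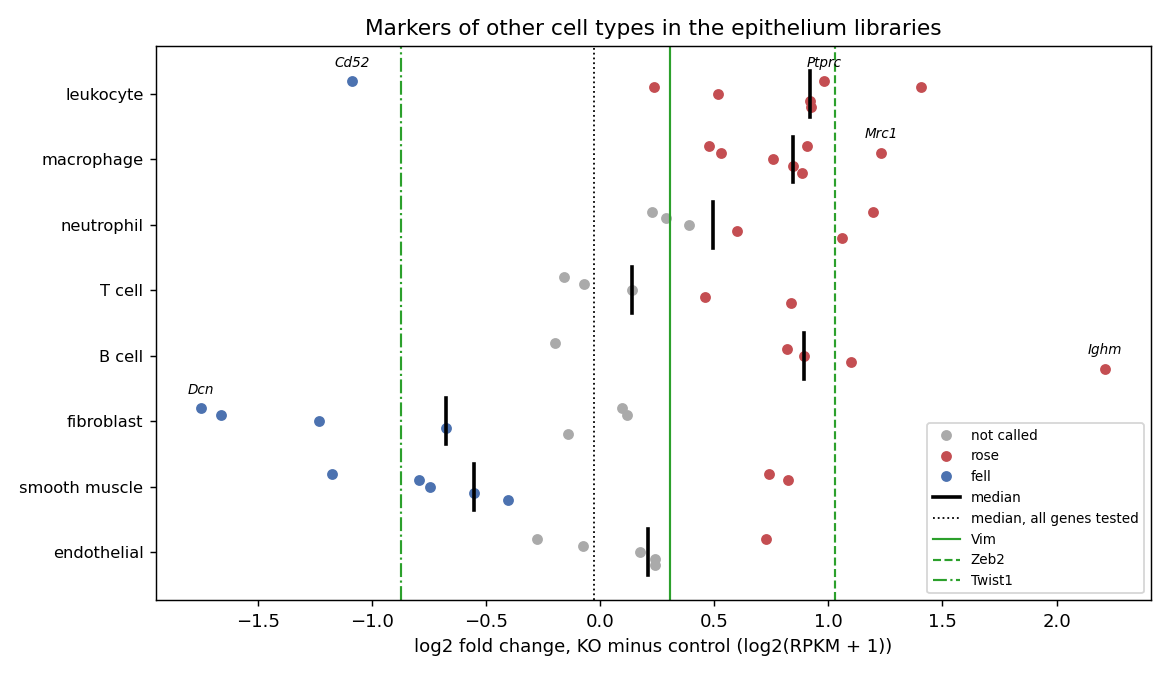
Log2 fold change of each marker gene of 8 other cell types in the epithelium, Arid1a KO minus control on log2(RPKM + 1), with the list median (black bar), the median of all genes tested (dotted line) and the values of Vim, Zeb2 and Twist1 as green lines. All 7 macrophage markers lie right of Vim at 0.31, and 3 of the 7 fibroblast markers lie left of Twist1 at -0.87.

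The luminal markers fell alongside Epcam. Of 7 genes, 6 fell and Krt8 was not called, where 29.6% of all genes fell and 27.5% rose. The sums of all 7 were 3459.6 to 4784 RPKM in the controls and 2676 to 3024 in Arid1a KO. Krt18, a keratin of luminal cells, had 527, 649 and 555 RPKM in the controls and 435, 444 and 454 in Arid1a KO, while Krt8 had 781 to 983 against 869 to 886. All 6 seminal vesicle markers fell, from sums of 18306 to 20706.5 to sums of 623 to 1573 RPKM. Of the 5 basal markers Krt5 and Krt14 rose and the others were not called (sums 1393 to 1976 against 2406 to 2684 RPKM). Krt15 had a log2 fold change of -0.37, with every Arid1a KO library below every control, Trp63 of -0.24 and Krt17 of 0.35. In these bulk libraries fewer cells of a type and less RNA per cell cannot be told apart. Arid1a itself had 27.8, 21.9 and 26.5 RPKM in the controls and 31.1, 28.8 and 30.8 in the libraries labelled Arid1a KO, so over the whole gene it was higher in each of them (log2 fold change 0.25, limma adjusted p = 0.0540). The deleted part of the gene is not resolved by a gene total, and every direction above rests on the labels.

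Log2 values in the epithelium were compared by Pearson's r over the 6 libraries among 9026 genes with a mean of at least 5 RPKM. The member itself is counted in that number. The genes that ran most like Epcam, Cdh1 and Vim were then listed. For Epcam these were Polr1c, Atp5c1 and Eny2, each with r of 0.998 to 0.999. For Cdh1 they were Upk1a and Dynlt3, both with r of 0.998, and Rnf128 with 0.993. For Vim they were ENSMUSG00000107086.1 with 0.995, Ccnyl1 with 0.994 and Arsa with 0.992. The 6 libraries share 2 groups, and these values are a description with no test.

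Further genes of the programme were read from the same fit in 4 lists. Junction genes split: of 24 tested, 8 rose, 9 fell and 7 were not called, where 27.5% of all genes rose and 29.6% fell. Their median log2 fold change was -0.03, against -0.03 over all genes. The largest falls were of 3 of the 5 claudins, the strand-forming proteins of tight junctions. Cldn8 went from 17.7 ± 0.170 to 4.03 ± 2.28 RPKM (log2 fold change -1.99, limma adjusted p = 6.05e-04), Cldn3 from 349 ± 39.7 to 158 ± 15.3 (-1.14) and Cldn1 from 8.22 ± 0.729 to 5.35 ± 0.481 (-0.54). Cldn4, the most abundant claudin at 918 ± 98.4 RPKM in the controls and 864 ± 27.1 in Arid1a KO (-0.08), and Cldn7 (-0.21) were not called. The rises were led by the polarity gene Pard6b, from 16.2 ± 0.613 to 26.9 ± 0.488 RPKM (0.70), then Nectin4, an adhesion gene, from 12.2 ± 0.574 to 18.7 ± 1.04 (0.57) and Tjp1, the ZO-1 scaffold, from 11.2 ± 1.54 to 15.2 ± 0.789 (0.42). After rescaling to the same sum 12 junction genes rose and 4 fell, so the split depends on the scaling.

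Of 15 regulators that hold the epithelial state, such as the grainyhead-like and OVOL factors, 3 rose, 2 fell and 10 were not called, with a median of 0.13, where 57.1% of all genes were called. Grhl3 had 1.74 ± 0.0626 RPKM in the controls and 6.72 ± 0.967 in Arid1a KO (log2 fold change 1.49, SE 0.10, limma adjusted p = 4.66e-05), Ovol1 7.62 ± 0.573 and 12.1 ± 1.66 (0.60), and Spint1, a protease inhibitor, 75.1 ± 6.03 and 92.2 ± 3.71 (0.29). Ehf, an epithelial ETS factor, fell from 58.3 ± 3.22 to 41.6 ± 7.78 RPKM (-0.49), and St14, which encodes matriptase, from 77.7 ± 7.57 to 61.1 ± 0.394 (-0.34). Rescaling to the same sum gave 9 rises and 0 falls in this list by limma, with 11 of its 15 genes at an unadjusted p under 0.05, and ended the calls of Ehf and St14. Ovol1 and Grhl3 remained called there. The gene that rose least, Spint1, was not called without control library C (limma adjusted p = 0.0508).

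Of 15 other transition factors 11 were tested, of which 2 rose, 6 fell and 3 were not called, with a median of -0.30, where 27.5% of all genes rose and 29.6% fell. After rescaling to the same sum 2 rose and 4 fell. Twist2, the paralog of Twist1, had 13.0, 10.95 and 18.8 RPKM in the controls and 3.00, 3.42 and 3.15 in Arid1a KO (log2 fold change -1.83, SE 0.17, limma adjusted p = 1.32e-04), so both Twist genes fell. Sox9, a factor of progenitor cells, went from 51.3 ± 3.13 to 27.6 ± 5.37 RPKM (-0.89) and Sox4 from 123 ± 20.5 to 73.3 ± 3.00 (-0.73). Fosl1, the AP-1 subunit FRA-1, rose from 17.1 ± 2.58 to 39.1 ± 4.13 RPKM (1.15).

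Mesenchymal effectors, the matrix and contractile genes downstream of the programme, held the largest rises. All 20 were tested, of which 9 rose, 5 fell and 6 were not called, with a median of 0.22. Over all genes 27.5% rose and 29.6% fell. Fn1, fibronectin, had 59.9, 33.6 and 59.6 RPKM in the controls and 426, 348 and 305 in Arid1a KO (log2 fold change 2.83, SE 0.23, limma adjusted p = 7.8e-05). Tnc, the matrix protein tenascin-C, went from 6.03 ± 0.843 to 38.1 ± 6.40 RPKM (2.47, SE 0.14). Tpm2, a tropomyosin, went from 17.0 ± 1.81 to 34.1 ± 5.74 RPKM (0.95). In the other direction, the matrix gene Sparc fell from 892 ± 143 to 458 ± 67.3 RPKM (-0.96), the contractile gene Tagln from 62.3 ± 4.55 to 35.6 ± 4.48 (-0.80) and the adhesion gene Ncam1 from 3.53 ± 0.277 to 2.27 ± 0.0691 (-0.47). Sparc and Tagln are also expressed by fibroblasts and smooth muscle cells. Of the fibroblast markers Dcn, Lum, Dpt and Pdgfra fell and Col1a1, Col1a2 and Col3a1 were not called. Of the smooth muscle markers Myh11 (-0.56), Cnn1 (-0.75), Des (-1.18), Smtn (-0.41) and Tagln fell. The smooth muscle actins Acta2 (0.74) and Actg2 (0.82) rose. Acta2, Tagln, Col1a1, Col1a2 and Col3a1 are on the effector list as well, so the lists are not separate. All 7 macrophage markers rose in these libraries, as given above. The part of macrophages, other leukocytes, fibroblasts and smooth muscle cells in the effector values, those of Fn1 and Tnc included, was not tested.

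**Figure D4:**
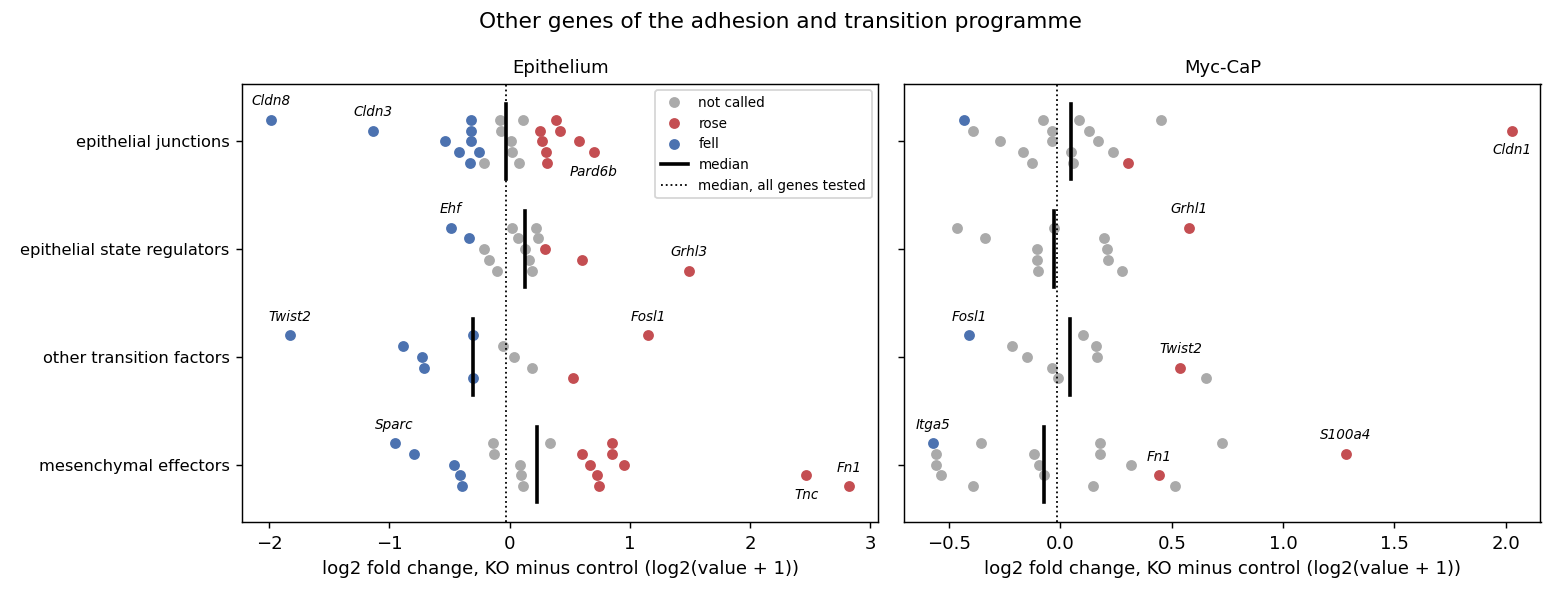
Log2 fold change, Arid1a KO minus control on log2(value + 1), of the tested genes of 4 further lists in the epithelium (left) and in Myc-CaP (right), with the list median (black bar) and the median of all genes tested (dotted line); the x axes differ. Twist2 and Fosl1 lie on opposite sides of 0 in the 2 systems, and Fn1 lies to the right in both.

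The Myc-CaP libraries expressed Vim and Zeb2 and little or nothing of the other 8 members. Values are TPM, scaled by length and to the same sum in each library, and were normalized apart from the epithelium, so levels were not compared between the systems by any test. Epcam was at 0 in 3 libraries and at 0.128 TPM in KO library 2. Cdh1 had 0.0257 and 0.0585 TPM with EV and 0 and 0.386 with Arid1a KO, which is 1, 2, 0 and 13 reads. Ocln was at 0 in all 4 libraries. The luminal keratins were also near 0 with EV, where Krt8 had 1.07 and 0.790 TPM, Krt18 0 and 0 and Krt19 0.322 and 0.0916. The adhesion and keratin markers by which a prostate epithelial line would be known were thus at or near 0 in the EV libraries, whereas Hoxb13 had 51.9 and 41.8 TPM and Cldn3 697 and 726. Leukocyte, neutrophil, T cell, B cell and endothelial markers summed to at most 5.52 TPM in any Myc-CaP library, and macrophage markers, mostly Cd14, to 8.29 to 11.9.

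Vim ranked 210 of the 25200 genes detected in Myc-CaP and was lower with Arid1a KO. It had 729 and 761 TPM with EV and 608 and 607 with Arid1a KO, so the groups did not overlap. The log2 fold change was -0.29 (SE 0.05, 95% interval -0.43 to -0.16, limma adjusted p = 0.0454 over 13974 genes). Zeb2 had 15.9 and 18.9 TPM with EV and 11.8 and 12.5 with Arid1a KO, which is 1393 and 1451 reads against 977 and 949. These groups did not overlap either, and the log2 fold change was -0.48 (SE 0.11, 95% interval -0.76 to -0.19, limma adjusted p = 0.0798). Of the 2 members tested, 0 rose and 1 fell by limma, with 0 and 2 at an unadjusted p under 0.05. Over all genes 6.43% were called, 4.54% as higher and 1.89% as lower in Arid1a KO, and in 51.5% the groups did not overlap. The call of Vim did not hold when any 1 of the 4 libraries was left out (limma adjusted p = 0.205 to 0.275, the group left with 1 library taken to vary like the other) or with no filter on low values (0.123), eBayes without a trend (0.144) or quantile normalization (0.0742), and with quantile normalization Zeb2 passed (0.0485). Arid1a was lower in the KO libraries, with 60.5 and 61.0 TPM against 39.5 and 40.3 (log2 fold change -0.59, limma adjusted p = 0.0102).

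**Figure D5:**
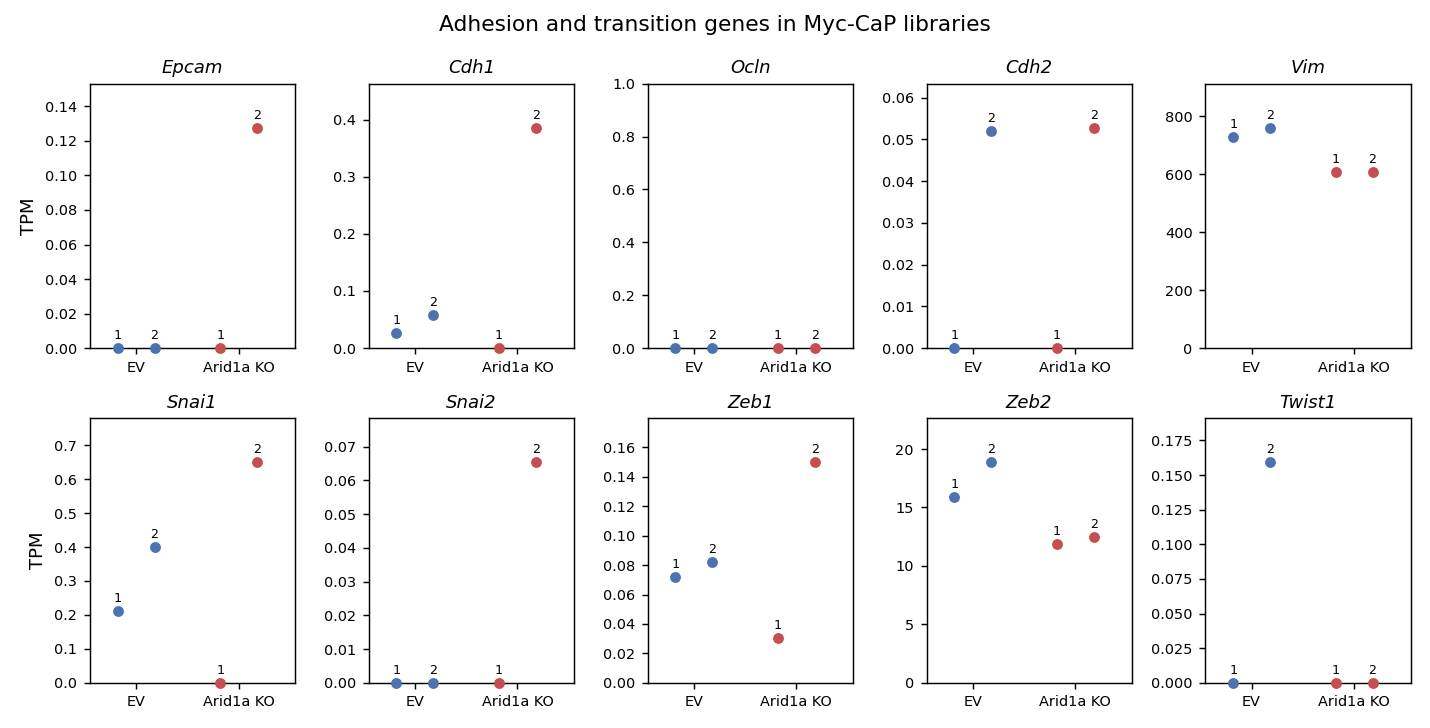
TPM of each of the 10 genes in the 2 Myc-CaP EV (blue) and 2 Myc-CaP Arid1a KO (red) libraries, with the library number above each point; each panel has its own y axis. Vim (608 and 607 against 729 and 761) and Zeb2 are lower in both Arid1a KO libraries, and the other panels hold values under 1 TPM.

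The factors other than Zeb2 were at trace level in Myc-CaP, and none was tested. Snai1 had 0.211 and 0.400 TPM with EV and 0 and 0.649 with Arid1a KO, or 3, 5, 0 and 8 reads. Zeb1 had 5, 5, 2 and 9 reads, at 0.0721 and 0.0820 TPM with EV and 0.0306 and 0.150 with Arid1a KO. The number 2 libraries held the higher value of each of these genes in both groups. Snai2 had 1 read in all, in KO library 2, Twist1 had 2 reads, in EV library 2, and Cdh2 had 4 reads in each number 2 library and 0 in the others. The number 2 libraries also held more of some fibroblast and smooth muscle genes: Col1a1 had 19.4 TPM in EV library 2 and 7.45 in KO library 2, against 0.211 and 0.347 in the number 1 libraries, and Acta2 had 4.89 and 2.27 against 0 and 0.0427. The part of these traces in the low members was not tested. At this depth differences between the groups in the 8 low members were not detectable.

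Among the further lists in Myc-CaP, few genes were called, where 6.43% of all genes were. Of 17 junction genes tested 2 rose and 1 fell (median 0.05), of 11 regulators 1 rose and 0 fell by limma (median -0.03; at an unadjusted p under 0.05, 3 and 0), of 10 factors 1 rose and 1 fell (median 0.04) and of 17 effectors 2 rose and 1 fell (median -0.07), beside a median of -0.01 over all genes. Cldn1 had 4.47 and 4.199 TPM with EV and 19.3 and 22.2 with Arid1a KO (log2 fold change 2.03, SE 0.11, limma adjusted p = 0.00262). Ctnnd1, the p120 catenin that holds cadherins at the membrane, went from 105 ± 2.23 to 130.1 ± 2.53 TPM (SD, n = 2; 0.31) and Grhl1 from 7.98 ± 0.162 to 12.4 ± 1.30 (0.58). Twist2 had 53.1 and 57.7 TPM with EV and 75.2 and 87.0 with Arid1a KO (0.54, limma adjusted p = 0.0406), and Fosl1 went from 322 ± 4.40 to 242 ± 1.97 TPM (-0.41). The calcium-binding gene S100a4 rose from 50.6 ± 1.15 to 125 ± 10.5 TPM (1.28), Fn1 rose from 897 ± 30.0 to 1219.9 ± 42.2 (0.44) and the fibronectin receptor gene Itga5 fell from 55.7 ± 0.0847 to 37.2 ± 0.939 (-0.57). Of these genes Cldn1 was the only one still called by limma whichever of the 4 libraries was left out, with an adjusted p of 0.0422 to 0.0499.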

How the data were processed

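RNA-seq had been run on 6 libraries of sorted prostate epithelium and 4 Myc-CaP libraries. The authors mapped the reads, which were paired-end, to GRCm38 and counted them per gene with HTSeq (the methods name TopHat2 as aligner, and the submitters' processing notes HISAT2), then deposited the epithelium values as RPKM and the Myc-CaP values as TPM. Gene lengths behind either unit are not given in the sources used here. Groups came from the genotype labels. The members and all gene lists were chosen with earlier results of these data known.

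Each table was fitted apart with limma 3.58.1 in R 4.3.3 on log2(value + 1), which understates changes of low genes. The test was limma's eBayes with a trend, on genes whose mean reached 0.5, and p-values were adjusted by Benjamini-Hochberg over all genes tested and called at 0.05. The script was tested on simulated data. No source says that libraries of a group came from separate cultures, so their p-values may measure technical spread. Fold changes are Arid1a KO minus control.

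Because reads had been counted whole, the steps between low values gave reads per member (within 0.01 of a whole number) and an epithelium depth of about 28.7 to 36.2 per library, in units of 1e+06 reads. TPM keep no absolute depth. The exact permutation test used scipy, and positions GENCODE M21. Afdn and Patj were matched as Mllt4 and Inadl. Named genes were the 10 members, up to 3 called rises and 3 called falls by size from each further list in each table (a few genes and 1 shared deletion are not reported here, though counts include them), the 3 genes most like Epcam, Cdh1 and Vim, and markers. Alternatives were another pseudocount, other filters, rescaling, quantile normalization, removal of a trend on gene length, eBayes without a trend, the thresholds of the study (1.5-fold and an unadjusted p under 0.05), a replicate block and leaving out each library.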

Additional observations from a re-analysis of the deposited data

Results flagged for a closer look

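Zeb2 and 9 further named genes moved in opposite directions in the 2 systems, in the sense that every Arid1a KO library lay beyond every control library on one side in the epithelium and on the other in Myc-CaP. The difference between the systems was not tested for any of them, because the tables were normalized apart and differ in unit. Among the members this held for Zeb2, with a log2 fold change of 1.03 in the epithelium (limma adjusted p = 1.74e-04) and -0.48 in Myc-CaP (0.0798). Both log2 fold changes passed limma's test in the epithelium and in Myc-CaP for 4 genes, which were Cldn1 with -0.54 and 2.03, Fosl1 with 1.15 and -0.41, Twist2 with -1.83 and 0.54, and Itga5 with 0.85 and -0.57. In the other 5 genes the epithelium value was called and the Myc-CaP value was not. These were Pard6b with 0.70 and -0.39, Tjp1 with 0.42 and -0.27, Cldn3 with -1.14 and 0.24, Sox9 with -0.89 and 0.66, and Ncam1 with -0.47 and 0.32. In Myc-CaP the groups did not overlap in 51.5% of all genes tested, and in the epithelium in 66.7%. Other named genes lay on the same side in both systems, such as Fn1 and Ctnnd1, which were higher, and Sox4, which was lower. The share of all genes on opposite sides was not counted, so whether the named genes exceed it is not known.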

How the results depend on the processing

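In the epithelium the calls of Epcam, Zeb2 and Twist1 held under every alternative in which the gene was tested, with log2 fold changes of -0.68 to -0.39, 0.73 to 1.19 and -1.08 to -0.62. That of Vim held under 6 of 8 alternatives with all libraries and 2 of 6 with a library left out, and at 1.24 times the control Vim is also below the 1.5-fold threshold of the study. Against 17 junction genes, 5 regulators and 8 factors called, the thresholds of the study gave 3, 2 and 5. Regulators came to 9 on rescaling to the same sum, 8 with quantile normalization, 8 with the length trend removed and 4 to 8 with a library left out. Ocln turned to 0.020 on rescaling and Snai1 to 0.068 with the length trend removed, with neither called, and the cause was not tested. With 0.1 added, the log2 ratio of Cdh2 to Cdh1 differed by 1.06 in place of 0.46. Ratios were not set for Myc-CaP, where Cdh1 and Cdh2 rest on few reads.

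In Myc-CaP 1 member, 3 junction genes, 1 regulator, 2 factors and 3 effectors were called by limma. With no filter on low values these were 0 (2 at an unadjusted p under 0.05), 1, 0 (3), 1 and 2. Without the eBayes trend they were 0 (2), 1, 0 (1), 0 (3) and 2, and with the thresholds of the study 0 (2), 1, 0 (3), 1 and 2. Quantile normalization gave 0 regulators (2). With a library left out the counts were 0 members (2), 1 junction gene, 0 regulators (1 to 2), 0 factors (3 to 5) and 0 to 1 effectors (3 to 6). Over all genes, against 899 called, 358 were called with no filter, 451 without the trend and 47 to 76 with a library left out. Rescaling to the same sum was not run, since TPM already have it.

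The replicate letters did not pair the epithelium libraries, whose same-letter correlations of deviations were 0.041, 0.0094 and -0.057. The Myc-CaP numbers gave the same 0.19 for each pair, since the deviations of 2 libraries mirror each other, so this value cannot settle a pairing. With a replicate block the Myc-CaP counts were 2, 6, 2, 4 and 6, with 2771 genes in all, and Zeb2 passed (adjusted p = 0.0179). In the epithelium the block ended the call of Vim (0.0854), with 8823 genes called against 9294.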

Other observations

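Luminal keratins of Myc-CaP were at or near 0 with EV and higher with Arid1a KO. They were singled out after their values were seen. Krt8 had 1.07 and 0.790 TPM with EV and 40.3 and 38.8 with Arid1a KO, and Krt19 had 0.322 and 0.0916 against 3.67 and 3.25. Krt8 had a log2 fold change of 4.40 (SE 0.12, limma adjusted p = 0.00135) and Krt19 of 1.89 (0.0117). Krt15, a basal keratin, had 0.137 ± 0.0873 TPM with EV and 2.15 ± 0.443 with Arid1a KO (SD, n = 2). Epcam and Cdh1 stayed below 0.4 TPM in all 4 libraries. In the epithelium, where Krt8 had a log2 fold change of 0.03 and was not called, the basal keratin genes Krt14 and Krt5 rose from 146 ± 30.2 to 799 ± 105 RPKM and from 302 ± 41.8 to 762 ± 76.0 (SD, n = 3), while Krt15 had 1107 ± 217 and 849 ± 44.7 and was not called (limma adjusted p = 0.0638).

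Collagen and smooth muscle genes differed between the libraries of each Myc-CaP group. Col3a1 was at 0 in both number 1 libraries and had 4.85 TPM in EV library 2 and 1.77 in KO library 2. Col1a2 had 0.437 and 0.440 TPM in the number 1 libraries against 5.96 and 2.19, and Actg2, a smooth muscle actin, 0.0867 and 0.276 against 7.49 and 2.500.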
